A study of Mus musculus with 4 samples.

Results

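The genes described here are metallothioneins, their regulator and zinc transporters: Mt1, Mt2, Mtf1, Slc30a1, Slc30a4, Slc30a5, Slc39a1, Slc39a6, Slc39a10 and Slc39a14. They were measured in YAMC cells, a conditionally immortalised mouse line derived from the colon epithelium of young adult animals. The members are every probe set that the array annotation pairs with 1 of these 10 symbols alone. This gave 13 probe sets for 9 genes, of 22626 probe sets and 12393 named genes on the array, and 0 for Slc39a10, whose expression was not analysed here. One group had no treatment and the other was kept for 16 h in conditioned medium of the probiotic bacterium Lactobacillus GG (LGG). Each group had 2 arrays of type 430A, and by their titles each group has 1 array from date 1 and 1 from date 2. What the dates mark, and whether the arrays came from separate cultures, is not given in the labels, so the spread between arrays may be technical. Cells given unconditioned medium were not analysed here.

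Metallothioneins are small proteins, rich in cysteine, that bind zinc, copper and cadmium and buffer the free metal of the cytosol. The transcription factor encoded by Mtf1 binds metal response elements in promoters when zinc is high and drives Mt1, Mt2 and the zinc exporter gene Slc30a1. Transporters of the ZnT family (Slc30) move zinc out of the cytosol, across the plasma membrane or into compartments, and those of the ZIP family (Slc39) move it in. In the intestine these genes set how epithelial cells take up, store and release zinc.

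The promoter windows of Mt1, Mt2 and Slc30a1 are shown because these genes are the textbook targets of the factor encoded by Mtf1 and had the lowest ratios of treated to untreated among the members. The windows run from 250 bases before to 50 bases after the RefSeq start site in build GRCm38.p6. They lie at chr8:94178839-94179138 for Mt1, chr8:94172368-94172667 for Mt2 and chr1:191906531-191906830 for Slc30a1, all on the plus strand, and are written 5′ to 3′. Capitals mark the core of the metal response element, searched as TGCACNC or TGCGCNC on both strands, with overlapping matches counted once.
Mt1: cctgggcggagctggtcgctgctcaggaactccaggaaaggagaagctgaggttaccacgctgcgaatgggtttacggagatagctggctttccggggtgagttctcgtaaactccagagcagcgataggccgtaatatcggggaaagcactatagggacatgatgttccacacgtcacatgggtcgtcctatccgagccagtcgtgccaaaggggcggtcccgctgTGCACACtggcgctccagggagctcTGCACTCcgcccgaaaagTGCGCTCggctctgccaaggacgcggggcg
Mt2: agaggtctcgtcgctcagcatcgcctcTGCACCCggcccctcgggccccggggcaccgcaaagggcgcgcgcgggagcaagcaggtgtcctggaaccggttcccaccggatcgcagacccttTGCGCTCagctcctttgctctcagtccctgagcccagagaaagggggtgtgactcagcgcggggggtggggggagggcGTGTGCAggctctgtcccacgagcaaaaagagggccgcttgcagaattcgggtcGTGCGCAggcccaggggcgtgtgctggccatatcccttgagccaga
Slc30a1: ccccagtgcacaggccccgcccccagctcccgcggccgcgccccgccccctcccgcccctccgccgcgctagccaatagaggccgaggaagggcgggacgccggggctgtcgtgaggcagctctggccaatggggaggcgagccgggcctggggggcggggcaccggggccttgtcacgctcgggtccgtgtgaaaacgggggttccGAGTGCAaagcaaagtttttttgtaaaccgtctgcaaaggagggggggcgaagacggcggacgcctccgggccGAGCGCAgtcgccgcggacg
The Mt1 window held 3 matches, the Mt2 window 4 and the Slc30a1 window 2. At least 1 match was found in 25.7% of all 32851 windows of this length in the RefSeq table, at least 2 in 6.14%, at least 3 in 1.31% and at least 4 in 0.295%. Of the other members, the Slc30a4 window held 3 matches, that of Slc30a5 held 1, and those of Mtf1, Slc39a1 and Slc39a10 held 0. A match describes these letters only and is no measure of binding. Each count depends on the start site used, and bases outside the windows were not searched. Mt2 and Mt1 are neighbours on chromosome 8, with start sites 6471 bases apart, next to Mt3 and Mt4.

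Mt1 was the only member that passed the test, and it fell. On the probe set 1422557_s_at it measured 2965.8 and 3208.7 without treatment at dates 1 and 2, and 969.4 and 458.4 with LGG medium. Both treated arrays lay far below both untreated arrays, and the lower treated value was that of date 2. The fitted log2 change was -2.16 ± 0.25 (SE; 95% interval -2.70 to -1.63), a 4.48-fold fall (limma with a date block, adjusted by Benjamini-Hochberg, adjusted p = 0.000396). Within the dates the log2 ratio of treated to untreated was -1.59 (date 1) and -2.74 (date 2), so the fall was seen at each date. Among the 6952 genes tested it had the 7th largest fitted fall. In the same comparison 6.50% of these genes passed in either direction and 3.50% passed as lower. Values are probe set intensities, compared as log2(intensity + 25.2), a scale that understates the change of dim genes. In cultures measured in bulk, fewer cells that express a gene and less RNA per cell cannot be told apart.

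The call of Mt1 rests on few arrays. It also passed without date as a block (limma, adjusted p = 0.0289), but not with no filter on dim probe sets (0.0818), without untreated replicate 1 (0.289) or without untreated replicate 2 (0.399), settings in which limma called 0 genes of the whole table, against 1524, 483 and 535 at an unadjusted p under 0.05. Without the untreated replicates the log2 change was -2.22 and -2.11. The Gapdh control probe sets, whose 3′ to 5′ ratio gauges RNA integrity, gave 0.805 untreated and 0.931 treated at date 1. At date 2, the date with the larger fall of Mt1, they gave 0.784 and 0.768. A second Mt1 probe set, 1451612_at, was too dim to be tested. It measured 71.1 and 46.6 without treatment (dates 1 and 2) and 34.9 and 15.2 with LGG medium, with log2 ratios of -0.68 and -0.83. Its treated values also lay below both untreated values. By the array maker's naming, a probe set ending in _s_at can detect several transcripts of similar sequence, and their share of the Mt1 signal was not tested.

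Mt2, the other metallothionein expressed in most tissues, had values at date 2 only, since both arrays of date 1 lacked a value for the same 6307 probe sets. It measured 2759.8 on the untreated array and 790.2 on the treated array, a log2 ratio of -1.77, with no replicate and no test. At that date Mt1 had a log2 ratio of -2.74. Of the 13956 probe sets above the intensity filter at date 2, 3.60% were at least 2-fold lower on the treated array. The tissue-restricted genes Mt3 and Mt4 were dim on all 4 arrays, between 6.1 and 39.9 for Mt3 and between 4.5 and 10.1 for Mt4, and were not tested.

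**Figure D1:**
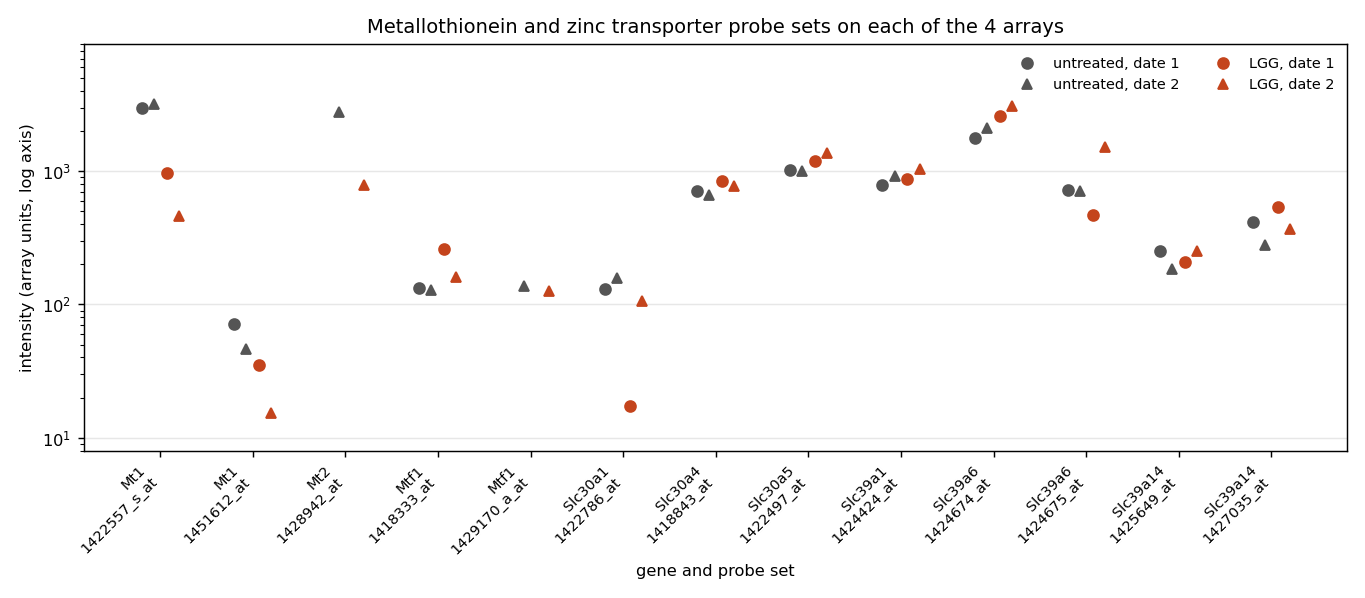
Intensity of the 13 probe sets (log axis, array units) on the untreated arrays (grey) and the arrays of cells given LGG conditioned medium (red), circles for date 1 and triangles for date 2. Both treated arrays lie below both untreated arrays for Mt1 and Slc30a1, Mt2 and the probe set 1429170_a_at of Mtf1 have values at date 2 only, and Slc30a1 at date 1 drops to 17.3.

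Mtf1, the metal-sensing transcription factor, did not pass. Its probe set 1418333_at measured 132.3 and 127.9 without treatment (dates 1 and 2) and 262.1 and 159.8 with LGG medium. The treated values were above both untreated values, and that of date 1 stood highest. The log2 change was 0.57 ± 0.28 (95% interval -0.02 to 1.16, limma, adjusted p = 0.263), and the ratio within a date was 0.87 (date 1) and 0.27 (date 2). The second probe set, 1429170_a_at, had values at date 2 only, 137.3 untreated and 127 treated, a log2 ratio of -0.09, so at date 2 the probe sets of Mtf1 differ in sign.

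Slc30a1 encodes the ZnT1 exporter of the plasma membrane. It measured 131.2 and 156.6 without treatment (dates 1 and 2) and 17.3 and 106.5 with LGG medium. The treated values lay below both untreated values, but the date 2 value was much closer to them than that of date 1. The log2 change was -1.17 ± 0.35 (95% interval -1.92 to -0.43), which did not pass (limma, adjusted p = 0.0626), and the ratio within a date was -1.88 (date 1) and -0.47 (date 2). It was -0.36 without LGG replicate 1, which is the date 1 array, and without LGG replicate 2 it was -1.99 (adjusted p = 0.0241). With a pseudocount of 1 it was -1.70 and with one of 20% of the trimmed mean -0.64, neither of which passed, so the size of this change depends on how dim values are treated. It had the 86th largest fitted fall of the 6952 genes.

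The ZnT members of intracellular compartments had somewhat higher values with LGG medium, and neither passed. Slc30a4, which loads zinc into vesicles, measured 713.7 and 666.6 without treatment (dates 1 and 2) and 840.2 and 778.3 with LGG medium. Its log2 change was 0.22 ± 0.22 (95% interval -0.24 to 0.69, limma, adjusted p = 0.623), with log2 ratios of 0.23 and 0.22 at the dates. Slc30a5, which supplies zinc to the early secretory pathway, measured 1023.3 and 1004.5 without treatment (dates 1 and 2) and 1192.2 and 1372.1 with LGG medium. Its log2 change was 0.33 ± 0.20 (95% interval -0.11 to 0.77, limma, adjusted p = 0.404). For both genes the treated arrays did not overlap the untreated arrays. The intervals allow a rise of up to 0.69 for Slc30a4 and 0.77 for Slc30a5 on the log2 scale, and a small fall.

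Among the importers, Slc39a6 came closest to the threshold. It encodes the importer known as LIV-1 or ZIP6. Its brighter probe set, 1424674_at, measured 1784.1 and 2106.3 without treatment (dates 1 and 2) and 2610.2 and 3083.5 with LGG medium. The log2 ratio was 0.54 at each date, the most even pair among the members. The fitted log2 change was 0.54 ± 0.17 (95% interval 0.18 to 0.91), which did not pass after adjustment (limma, adjusted p = 0.0785). The probe set 1424675_at did not repeat this, with 721.1 and 705.7 without treatment (dates 1 and 2) and 467.5 and 1526 with LGG medium. The treated arrays lay on opposite sides of the untreated arrays, at log2 ratios of -0.60 (date 1) and 1.09 (date 2). The mean over both probe sets gave a log2 change of 0.39 (adjusted p = 0.225).

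Slc39a1, an importer of the plasma membrane present in most cells, measured 792.8 and 925.7 without treatment (dates 1 and 2) and 871.4 and 1030 with LGG medium. The groups overlapped, and the log2 change was 0.14 ± 0.21 (95% interval -0.31 to 0.59, limma, adjusted p = 0.767). Slc39a14, which carries zinc, iron and manganese, measured 417.9 and 281.6 without treatment (dates 1 and 2) and 538.4 and 370.1 with LGG medium with its brighter probe set, 1427035_at. Each treated array was above the untreated array of its date, but the groups overlapped because both arrays of date 1 were higher. The log2 change was 0.36 ± 0.23 (95% interval -0.15 to 0.86, limma, adjusted p = 0.434). Its second probe set, 1425649_at, measured 250.1 and 185.3 without treatment (dates 1 and 2) and 209.4 and 252.8 with LGG medium. These values overlapped too, with a log2 change of 0.09 ± 0.27 (adjusted p = 0.901).

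**Figure D2:**
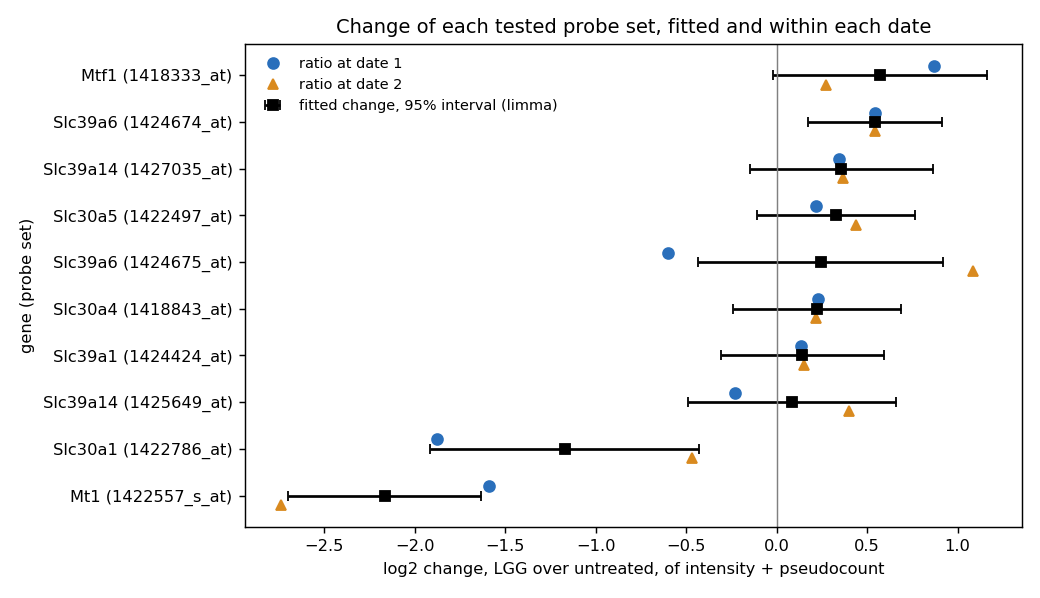
Log2 change of LGG over untreated for the 10 probe sets tested, as fitted by limma with its 95% interval (squares and bars) and as the ratio within date 1 (circles) and date 2 (triangles). The intervals of Mt1, Slc30a1 and the brighter Slc39a6 probe set do not include 0, but of these only Mt1 passed after adjustment over all probe sets.

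Of the 10 genes, 8 were tested, all but Mt2 and Slc39a10, and of these 0 rose, 1 fell and 7 did not pass. In the same comparison 6.50% of all genes tested passed, and 1 call among 8 genes is too few to set apart from that share. A gene with several probe sets is represented by the brightest. The median log2 change of the 8 genes was 0.27, against 0.03 over all genes tested. On 6 of the 8 genes the groups did not overlap, a pattern found in 48.5% of all genes. The sign was the same at both dates for all 8, higher for 6 and lower for 2, against 65.2% of all genes with a like sign. Of the 2 lower genes, Slc30a1 reached the filter only through its untreated arrays, since the mean of its treated arrays, 61.9, was below it. The difference in level between the dates, over both groups, passed for 0 of the 8 and for 0.388% of all genes, and the largest such difference among them was that of Slc30a1, 0.92 ± 0.35 on the log2 scale (date 2 over date 1, limma, adjusted p = 0.34).

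The rest of the zinc transporters gave no call. At 6.50% called over all genes tested, 0 calls in lists this short is no result about either family. Of 10 genes of the ZnT family, 7 were tested, with 0 rising and 0 falling and a median log2 change of 0.22. Slc30a1 was below 0 and the other 6 lay between 0.15 and 0.33. These are fitted values, and the log2 ratios of Slc30a3 (-0.22 at date 1, 0.80 at date 2) and Slc30a6 (-0.02 and 0.33) differed in sign between the dates. Beside the members the largest change of like sign at both dates was that of Slc30a7, which acts in the Golgi. Its log2 change was 0.30 (limma, adjusted p = 0.51), with log2 ratios of 0.17 (date 1) and 0.43 (date 2). Of 14 genes of the ZIP family, 9 were tested, 0 rose and 0 fell, and the median was 0.00391. Slc39a13, an importer of the secretory pathway, had a log2 change of -0.34 (adjusted p = 0.459).

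Of 9 genes named as targets of the factor encoded by Mtf1, 6 were tested, 1 rose, 1 fell and 4 did not pass. Their median log2 change was -0.21, and 6.50% of all genes tested passed in either direction. Mt1 fell as given. Gclc, the catalytic subunit of the enzyme that limits glutathione synthesis and also a target of NRF2, rose. It measured 214.5 and 164.5 without treatment (dates 1 and 2) and 413.2 and 347.4 with LGG medium, a log2 change of 0.92 ± 0.25 (limma, adjusted p = 0.0402). Its other probe set had log2 ratios of -0.40 and 0.91 at the dates. The call of Gclc was lost with no date block (adjusted p = 0.136), with no filter (0.189), with the filter at 50% of the trimmed mean (0.0547), with no intensity trend (0.0524) and when any 1 array was left out (0.0949 to 0.66). The selenoprotein gene Selenow had a log2 change of -0.41 (adjusted p = 0.243) and Csrp1, which encodes a LIM domain protein, 0.16 (0.69).

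Other metals were followed with lists for copper and iron. Of 16 copper genes, 8 were tested, 0 rose and 1 fell, with a median log2 change of -0.00411. For these counts too, the share over all genes tested was 6.50%. The one that fell was Steap4, a reductase of iron and copper at membranes, which measured 1703.8 and 1802.2 without treatment (dates 1 and 2) and 662.6 and 303.8 with LGG medium. Its log2 change was -1.90 ± 0.26 (limma, adjusted p = 0.000947), and that of its second probe set was -2.35 ± 0.25. The groups did not overlap on either probe set. The superoxide dismutase gene Sod1 (0.32), its copper chaperone gene Ccs (-0.25) and Commd1 (0.06) did not pass.

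Of 20 iron genes, 12 were tested, 0 rose and 1 fell, against 6.50% of all genes tested that passed. The median log2 change was 0.04. Tfrc, the transferrin receptor that brings iron into cells, measured 532.2 and 548.7 without treatment (dates 1 and 2) and 99 and 277.5 with LGG medium. Its log2 change was -1.54 ± 0.30 (limma, adjusted p = 0.008), and it did not pass without date as a block (0.109) or without LGG replicate 1 (log2 change -0.90, 0.0597). A second probe set, at -0.60 ± 0.28, did not pass. The mitochondrial iron importer genes Slc25a37 (0.70, adjusted p = 0.113) and Slc25a28 (0.64, adjusted p = 0.0985) and the iron chaperone gene Pcbp1 (-0.15) did not pass. Without either untreated array, or with no filter, the calls of Steap4 and Tfrc were lost, as was every call in the table.

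**Figure D3:**
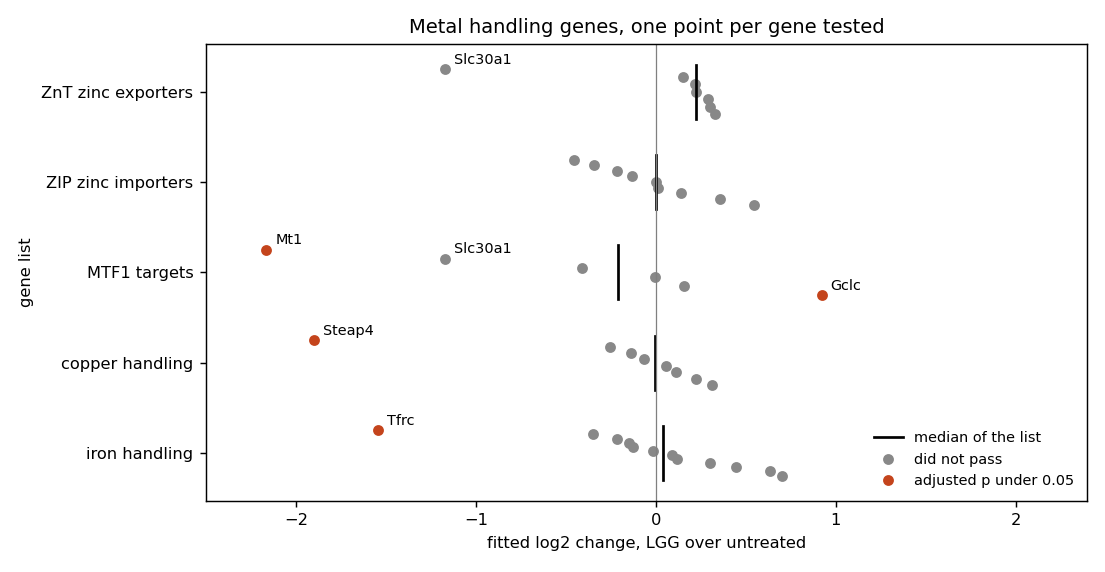
Fitted log2 change of LGG over untreated for each gene tested in 5 lists of metal handling genes, red where limma's adjusted p was under 0.05 and grey otherwise, with the list median as a black bar. The red points are Mt1 and Gclc among the MTF1 targets, Steap4 among copper genes and Tfrc among iron genes. The ZnT exporters other than Slc30a1 have fitted changes between 0.15 and 0.33, though the ratios of Slc30a3 and Slc30a6 differ in sign between the dates.

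The genes whose pair of ratios lay nearest to that of Mt1 were taken from the other 451 genes called, by the distance between the log2 ratios at date 1 and date 2. They were Medag (distance 0.168), the ephrin gene Efnb2 (0.313), Steap4 (0.372), the neutrophil chemokine gene Cxcl5 (0.38) and the phosphatase subunit gene Ppp2r2b (0.406). Medag had log2 ratios of -1.52 and -2.89, Steap4 of -1.33 and -2.47 and Cxcl5 of -1.21 and -2.78. Each of these 5 genes, like Mt1, had a lower ratio at date 2 than at date 1, which follows from picking genes this near to Mt1. Medag and Ppp2r2b reached the intensity filter only through their untreated arrays, with treated means of 32.9 and 62.8. Efnb2, Steap4 and Cxcl5 had treated means above it. With a pseudocount of 1 or of 20% of the trimmed mean, Medag had a log2 change of -3.11 or -1.30. Ppp2r2b had -3.03 or -1.66, and Mt1 -2.21 or -2.04. The nearness of Medag and Ppp2r2b to Mt1 therefore depends on the pseudocount, and no distance with another one is given. The measure covers 2 ratios per gene and is a description only.

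**Figure D4:**
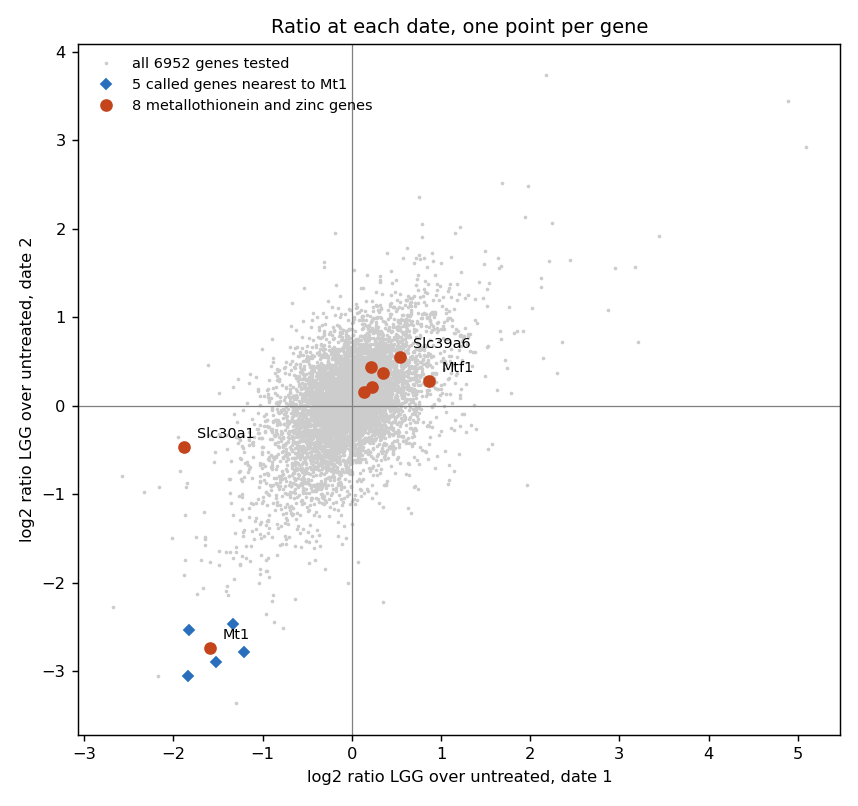
Log2 ratio of LGG over untreated at date 1 (horizontal) and date 2 (vertical) for 6952 genes (grey), the 8 metallothionein and zinc genes tested (red) and the 5 called genes nearest to Mt1 (blue). Mt1 lies at -1.59 and -2.74 amid the blue points, Slc30a1 at -1.88 and -0.47, and the other 6 red points lie above 0 on both axes.

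The arrays and cells were checked as a whole. The mean intensity without the lowest and highest 2% lay between 500.1 and 513.5 over the 4 arrays. Of 11 markers of colon epithelium, 3 (Krt8, Krt18 and Krt19) were bright enough to be tested, and the other 8 were below the filter, among them Epcam (6 to 9), Cdh1 (8.7 to 41.8), Vil1, Cdx1 and Cdx2. None of the 3 passed. Krt19 was lower with LGG medium (log2 change -0.72, limma, adjusted p = 0.0693) and Krt18 higher (0.66, 0.138), each without overlap of the groups, and Krt8 was at 0.23. The list summed to 2414.4 and 3285.4 without treatment (dates 1 and 2) and 3382.3 and 2887.7 with LGG medium, so the sums of the groups overlapped. Of 10 markers of fibroblasts and mesenchyme 6 were tested, and the summed intensity of the 9 with values on all arrays was 37586 and 32321 without treatment and 29467 and 27094 with LGG medium. This sum, made up mostly of the bright genes Vim, Col1a1, Dcn and Acta2, was lower with treatment, as Mt1 was. The log2 change of each of the 6 genes tested was below 0, but they differed in size. Dcn fell (log2 change -0.91, limma, adjusted p = 0.0014), and the other 5 did not pass. These were Col1a2 (-0.59), Pdgfra (-0.44), Vim (-0.25), Col1a1 (-0.04) and Acta2 (-0.02), each on its brightest probe set. The groups did not overlap for Col1a2, Pdgfra and Vim. Of 4 endothelial markers only Kdr was tested, and it rose (log2 change 1.29, limma, adjusted p = 0.00923). Below the filter, Tek went the other way, from 149.4 and 96.1 without treatment to 36.8 and 51.4 with LGG medium (dates 1 and 2). Pecam1 was also lower, from 48 and 34.1 to 12.1 and 21.3, and the groups overlapped for Cdh5 on its probe set valued at both dates. The endothelial list summed to 398.3 and 309 without treatment and 487 and 452.2 with LGG medium, a higher sum that came from Kdr and not from the list as a whole. Of 6 immune markers only Cd68 was tested, and it rose (1.06, limma, adjusted p = 0.0314), while Ptprc lay between 15.4 and 37.2. The groups overlapped for Ptprc, Adgre1, Cd3e and Itgam. The 5 immune markers on the array summed to 357.8 and 219.4 without treatment and 525.9 and 452.1 with LGG medium. The part of these markers in the result for Mt1 was not tested.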

How the data were processed

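The 4 arrays measured total RNA extracted with Trizol and cleaned with a Qiagen kit, per the labels. A table of linear intensity values was deposited by the authors, apparently scaled to a common mean; software, scaling and filters are not given in the sources used here, and no detection calls were used. Groups and dates came from the titles. The members and gene lists were chosen with earlier results of these data known. Without 64 control probe sets, 16319 were valued on every array. The test covered the 10333 whose mean reached 101, which is 20% of the arrays' trimmed mean, for 6952 genes, on log2(intensity + 25.2). Tests used limma 3.58.1 in R 4.3.3 (terms for group and date, moderated with an intensity trend, two-sided), adjusted by Benjamini-Hochberg across the probe sets tested, at 0.05. The fit had 1 residual and 12.4 prior degrees of freedom, so p-values and SEs rest mostly on variance shared across genes. The date pairs the arrays by their titles; across probe sets, the date difference of untreated arrays correlated at 0.271 with that of treated arrays. On simulated data with known changes the fit recovered them, and its share of false calls was often above the nominal one. Names came from the platform annotation, with 20364 of 20393 single-symbol probe sets matched to RefSeq by Entrez identifier. Promoters came from the RefSeq table of GRCm38.p6, which held 8 of the 10 members. The text names all members, every list gene that passed and the 5 genes nearest to Mt1. It also names up to 3 others per list with the largest change of like sign at both dates. Mt3, Mt4, Cp, Slc30a3, Slc30a6 and marker genes were chosen after their values were seen. Alternatives changed the block, pseudocount, filter, scaling, trend, probe set rule and arrays used. Figures were drawn with matplotlib 3.10.9.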

Additional observations from a re-analysis of the deposited data

Results flagged for a closer look

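Of the member probe sets tested, 2 had ratios of opposite sign at the dates, and whether the effect of treatment differs between the dates was not tested. The probe set 1424675_at of Slc39a6 gave log2 ratios of treated to untreated of -0.60 (date 1) and 1.09 (date 2). The probe set 1425649_at of Slc39a14 gave -0.23 (date 1) and 0.40 (date 2). Each gene's brighter probe set had the same sign at both dates.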

How the results depend on the processing

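Mt1 kept its direction under every alternative run, with log2 changes between -2.69 (without LGG replicate 1) and -1.64 (without LGG replicate 2), and lost its call with no filter (limma, adjusted p = 0.0818) and without either untreated array; its adjusted p ranged from 3.64e-10, with probe sets of a gene averaged, to 0.399. Without the date block, the count of genes called went from 452 to 61, that of the gene lists beside the members from 3 to 1, and that of the members stayed at 1. With no filter on dim probe sets, 0 genes, 0 members and 0 list genes were called by limma (1524, 3 and 8 at an unadjusted p under 0.05), with prior degrees of freedom of 5.01. Without the intensity trend 244 genes were called. Leaving out 1 array, in fits without the block, gave 0 to 408 genes, 0 to 2 members and 0 to 2 list genes, the lone array of a group being assumed to vary like the others. The probe set mean gave 2 members called, adding Slc30a1 (limma, adjusted p = 0.0112), with 41.4 prior degrees of freedom against 12.4 in the main fit. Slc30a1 and Mt1 each had 1 tested probe set, so nothing was averaged for them. Their log2 changes stayed at -1.17 and -2.16, and no averaging lies behind their lower adjusted p-values. Without LGG replicate 1 the probe set 1424675_at of Slc39a6 had a log2 change of 1.07 (adjusted p = 0.0227) and without LGG replicate 2 -0.58. The probe set 1425649_at of Slc39a14 was at -0.11 without untreated replicate 2 and -0.04 without LGG replicate 2. Slc30a1 was below the filter, and so not fitted, without either untreated array or with the filter at 50%. The Mt2 log2 ratio was -1.80 with a pseudocount of 1 and -1.68 with one of 20% of the trimmed mean. The causes were not tested. With no detection calls, no bound against background can be given for dim probe sets such as Slc30a1.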
